A study of Rattus norvegicus with 12 samples.

Results

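The genes described here are the activators of the circadian clock, the nuclear receptors of its second loop and the bZIP factors that carry its output. Members were chosen by symbol: the activators *Arntl*, *Clock* and *Npas2*, the receptors *Nr1d1*, *Nr1d2* and *Rora*, and the output factors *Dbp*, *Tef*, *Hlf* and *Nfil3*. Of these 10 symbols, 8 were found among the 17337 genes of the count table, and *Rora* and *Hlf* were not analysed here. RNA sequencing was performed on whole striatum of 12 male wild-type Sprague-Dawley rats. By the labels, all of them had self-administered methamphetamine (MA) for 16 days. The MA12 rats (n = 4) were killed 12 h after the last session and the MA24 rats (n = 4) 24 h after it. The 4 rats that the labels call non-addicted are labelled with the same 16 days of MA self-administration. Neither how non-addicted was defined nor the time of their collection is given in the sources used here. The study's text describes no group of that name. Groups labelled as saline rats or as MA rats without abstinence were not analysed here, so by the labels no group is free of MA. Because MA12 and MA24 lie 12 h apart, the length of abstinence and the time of day cannot be told apart in MA24 vs. MA12.

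The clock is a feedback loop of transcription that runs in most cells. BMAL1, the product of *Arntl*, pairs with CLOCK or with its relative NPAS2 on E-box elements and drives the period and cryptochrome genes, whose products then repress the pair. The same pair drives *Nr1d1* and *Nr1d2*, which encode REV-ERB alpha and REV-ERB beta. These receptors compete with ROR receptors, such as the product of *Rora*, and repress *Arntl*, so that *Arntl* peaks nearly opposite in phase to *Dbp* and the period genes. *Dbp*, *Tef* and *Hlf* encode activators of D-box elements, and NFIL3 represses the same elements. NPAS2 is abundant in the forebrain, and clock genes of the striatum are known to respond to dopamine and to the timing of drug intake.

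Promoter sequences are shown for *Arntl* and *Dbp*, the members whose levels changed, and for *Tef*, the closest relative of *Dbp* among the genes counted. Each is the run of 250 bases before the annotated transcription start in RefSeq (build GRCr8), read 5′ to 3′ on the strand of the gene. The counts themselves were made on rn6, and no position of that build is given here. Promoters were found for all 8 counted members, with *Arntl* listed under its other name *Bmal1*. Capitals mark 2 motifs, the E-box CACGTG and an extended REV-ERB/ROR element, AAAGTAGGTNA. The letters of the second were taken from the *Arntl* promoter itself: the shorter AGGTCA with the 5 bases before it, and N where its 2 copies there differ.

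*Arntl* (chr1:176766078-176766327, + strand): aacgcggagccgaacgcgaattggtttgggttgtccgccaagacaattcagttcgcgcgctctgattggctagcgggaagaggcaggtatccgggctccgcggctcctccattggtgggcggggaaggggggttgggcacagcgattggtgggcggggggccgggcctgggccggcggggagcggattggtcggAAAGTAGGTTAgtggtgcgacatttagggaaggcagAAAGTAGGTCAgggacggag
*Dbp* (chr1:105312006-105312255, + strand): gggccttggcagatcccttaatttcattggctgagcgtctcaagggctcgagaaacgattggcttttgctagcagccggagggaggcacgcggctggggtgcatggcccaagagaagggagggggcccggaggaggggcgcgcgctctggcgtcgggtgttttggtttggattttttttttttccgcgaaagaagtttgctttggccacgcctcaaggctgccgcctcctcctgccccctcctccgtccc
*Tef* (chr7:115206577-115206826, + strand): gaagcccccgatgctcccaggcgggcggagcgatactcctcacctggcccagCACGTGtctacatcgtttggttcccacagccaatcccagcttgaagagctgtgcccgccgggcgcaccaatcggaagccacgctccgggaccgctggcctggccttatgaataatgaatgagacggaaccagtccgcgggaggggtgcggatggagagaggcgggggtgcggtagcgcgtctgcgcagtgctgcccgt

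The *Arntl* promoter held the extended element at 2 places, whose first bases lie 56 and 20 bases before the start. The element at 20 bases overlaps a match to the shorter AGGTCA, whose first base lies 15 bases before the start. Both matches to the extended element follow from the choice of its letters. Of 33469 rat promoters of this length, 12 (0.0359%), *Arntl* included, held the extended element and 14.1% held the shorter AGGTCA, with both strands searched. The *Tef* promoter held CACGTG 198 bases before the start, as did 5.59% of all promoters. The second annotated start of *Nr1d1* had CACGTG 191 bases before it. The related CACGTT, present in 4.07% of promoters, was found on the opposite strand 174 bases before the other *Nr1d1* start. *Nr1d2* had AGGTCA 187 bases before its start. Neither these motifs nor the D-box letters TTATGTAA (0.828% of promoters) and TTACGTAA (0.108%) were found in the windows of *Dbp*, *Clock*, *Npas2* or *Nfil3*. A match is a stretch of letters and not a measured binding site.

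The libraries held between 17908962 and 23850284 counts, and TMM scaling factors lay between 0.958 and 1.06. Levels are given as log2 CPM, counts scaled to a common library size with TMM factors, so that a difference of 1 is a doubling of the level. They are not divided by transcript length, and are compared only between rats for the same gene. The study's methods describe 1 batch of RNA extraction for all the groups they name. The rat numbers of the labels end in N in 4 of 4 MA24 rats, 2 of 4 MA12 rats and 0 of 4 non-addicted rats, and what the letter marks is not stated. Markers of striatal projection neurons summed to between 14004 and 17420 CPM in the 12 libraries. Markers of hypothalamus summed to at most 23.3 CPM and those of cortex to at most 9.82 CPM. The hypothalamic *Six6* and *Pmch* were at 0 in every library. Others of that list were present, with 177 to 271 counts of *Trh* and 9 to 60 of *Hcrt* per library. Thalamic markers summed to 29.3 to 33.0 CPM in MA24, below the 33.6 to 67.2 CPM of MA12. *Prkcd* is part of this sum, with 291 to 1196 counts per library, against at most 206 for any other marker of the list. Sums for astrocytes and microglia overlapped between MA12 and MA24. Vascular markers summed to 344 to 465 CPM in the non-addicted rats, below the 470 to 617 CPM of MA12 and the 521 to 583 CPM of MA24. The vascular gene *Rgs5* (log2FC -0.72) and the thalamic marker *Prkcd* (log2FC -0.94) were lower in MA24 vs. MA12. *Rgs5* was the extreme of its list, as the 7 vascular markers ran from -0.72 to 0.26 there, with a median of -0.01. The 4 thalamic markers tested ran from -0.94 to -0.21, with a median of -0.26. *Cldn5* (log2FC -0.68) was lower and the ependymal *Foxj1* (log2FC 1.08) higher in non-addicted vs. MA24. Oligodendrocyte markers summed to 11452 to 16094 CPM in the non-addicted rats, below the 16585 to 19858 CPM of MA24. The part of these cell type markers, and of the kind of rat number, in the results below was not tested except where a value is given.

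*Arntl*, the activator without which the loop stops, was high in MA12 and lower in both other groups. In the MA12 rats 21, 31, 4N and 7N its level was 5.84, 5.62, 5.90 and 5.96 log2 CPM. In the MA24 rats 9N, 14N, 15N and 16N it was 5.37, 5.21, 5.24 and 5.05 log2 CPM. In the non-addicted rats 9, 11, 12 and 13 it was 5.31, 5.24, 5.28 and 5.15 log2 CPM. Every MA12 rat therefore lay above all 8 other rats, and the MA24 and non-addicted rats covered nearly the same range. The group means were 5.83 ± 0.15 in MA12, 5.22 ± 0.13 in MA24 and 5.24 ± 0.07 log2 CPM in the non-addicted rats (SD, n = 4 each). These levels rest on 1102 to 1357 counts per MA12 library and on 626 to 960 counts in the others.

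*Arntl* fell 1.53-fold in MA24 vs. MA12 (log2FC -0.61, SE 0.11, edgeR adjusted p = 0.00605), past both thresholds. These were an adjusted p under 0.05 and a fold change (FC) no smaller than 1.5. In this bulk tissue, fewer cells with *Arntl* RNA and less *Arntl* RNA per cell cannot be told apart. It was 1.51-fold lower in non-addicted rats vs. MA12 (log2FC -0.60, SE 0.10, edgeR adjusted p = 0.0132). Both comparisons use the same 4 MA12 rats. In non-addicted vs. MA24 its variance was too low to pass the filter, and without the variance filter the difference was 0.02 (SE 0.09, edgeR adjusted p = 0.922). In MA24 vs. MA12 the log2FC dropped under the FC threshold without MA12 rat 7N or MA24 rat 16N (-0.56 in each), with an adjusted p of at most 0.0204 in any alternative. It was -0.70 (edgeR adjusted p = 0.0067) among the rats whose numbers end in N. The call in non-addicted vs. MA12 was lost without non-addicted rat 12 (log2FC -0.61, edgeR adjusted p = 0.0502) or MA12 rat 4N (-0.56, edgeR adjusted p = 0.0539). It was lost for size alone without non-addicted rat 13 (-0.55) or MA12 rat 7N (-0.53). Among rats whose numbers do not end in N the log2FC was -0.48 (edgeR adjusted p = 0.0885). With the N as a term in the fit it was -0.49 (edgeR adjusted p = 0.0963).

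*Clock* encodes the usual partner of BMAL1 and moved less. Its level was 6.48, 6.36, 6.28 and 6.34 log2 CPM in the MA12 rats and 6.12, 6.17, 6.26 and 6.003 log2 CPM in the MA24 rats, in the order of rats given for *Arntl*. In the non-addicted rats it was 6.30, 6.21, 6.35 and 6.19 log2 CPM. All MA24 rats lay below all MA12 rats, by a narrow margin, and the non-addicted rats overlapped both groups. The log2FC in MA24 vs. MA12 was -0.22 (SE 0.10, edgeR adjusted p = 0.167), which did not pass the test. *Clock* was removed from non-addicted vs. MA12 by the variance filter, where its log2FC without that filter was -0.11 (SE 0.07, edgeR adjusted p = 0.618). In non-addicted vs. MA24 it was 0.12 (SE 0.10, edgeR adjusted p = 0.510).

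*Npas2*, which can replace *Clock* in forebrain neurons, overlapped in all 3 groups. Its level was 6.83, 6.97, 7.20 and 7.19 log2 CPM in the MA12 rats. It was 7.00, 6.86, 6.86 and 7.07 log2 CPM in the MA24 rats and 6.91, 6.79, 7.00 and 6.97 log2 CPM in the non-addicted rats. Rats 4N and 7N of MA12 were the highest of the 12, and the other MA12 rats lay within the range of the rest. The log2FC was -0.10 (SE 0.11, edgeR adjusted p = 0.573) in MA24 vs. MA12 and -0.14 (SE 0.11, edgeR adjusted p = 0.634) in non-addicted vs. MA12. Without the variance filter it was -0.03 (SE 0.08, edgeR adjusted p = 0.864) in non-addicted vs. MA24. Of the activators, *Arntl* thus had a called difference between groups, and the differences of *Clock* and *Npas2* did not pass the test in any of the 3 comparisons.

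**Figure D1:**
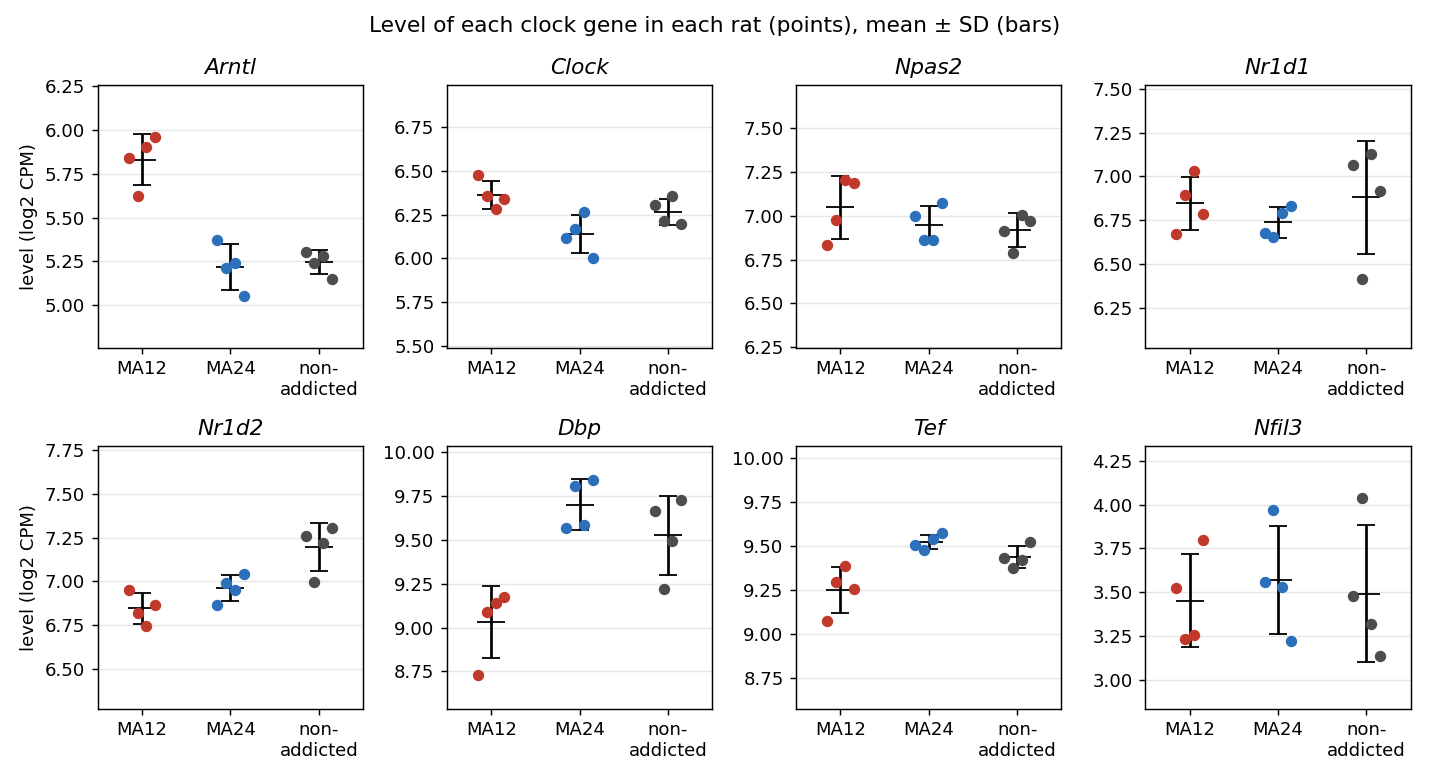
Level of the 8 clock genes (log2 CPM, vertical axis, the same span in every panel) in each of the 12 rats, with group means and SD as bars. *Arntl* lies higher and *Dbp* lower in all MA12 rats than in any other rat, while *Npas2*, *Nr1d1* and *Nfil3* overlap between all groups.

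No difference of the REV-ERB genes, whose products repress *Arntl*, passed the test. *Nr1d1* was at 6.67, 6.89, 7.03 and 6.79 log2 CPM in the MA12 rats and at 6.68, 6.65, 6.79 and 6.83 log2 CPM in the MA24 rats. In the non-addicted rats it was at 7.07, 6.42, 7.13 and 6.91 log2 CPM, so that this group held both the highest rats and the lowest of the 12. Its log2FC was -0.11 (SE 0.10, edgeR adjusted p = 0.511) in MA24 vs. MA12 and 0.05 (SE 0.13, edgeR adjusted p = 0.919) in non-addicted vs. MA12. It was 0.16 (SE 0.13, edgeR adjusted p = 0.502) in non-addicted vs. MA24. *Nr1d1* overlaps *Thra*, the thyroid hormone receptor alpha gene, on the opposite strand. The kit does not mark strand, so reads from the shared stretch cannot be told apart. *Thra* had 9954 to 15265 counts, and its log2FC without the variance filter was 0.16 (edgeR adjusted p = 0.284) in MA24 vs. MA12.

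*Nr1d2* had its highest values in the non-addicted rats. Its level there was 7.26, 7.00, 7.22 and 7.30 log2 CPM, against 6.95, 6.82, 6.74 and 6.87 log2 CPM in MA12. The MA24 rats, at 6.87, 6.99, 6.95 and 7.04 log2 CPM, lay between and overlapped both. All non-addicted rats exceeded all MA12 rats, with a log2FC of 0.35 (SE 0.10) that did not pass the test in edgeR (adjusted p = 0.142). DESeq2 gave the same comparison an adjusted p of 0.0243, with a log2FC of 0.36 that is under the FC threshold. In MA24 vs. MA12 *Nr1d2* was removed by the variance filter, with 0.12 (SE 0.07, edgeR adjusted p = 0.354) without it. In non-addicted vs. MA24 the log2FC was 0.23 (SE 0.10, edgeR adjusted p = 0.237).

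*Dbp*, a direct target of the BMAL1 pair and an activator of D-box genes, had the reverse order of *Arntl*. Its level was 8.73, 9.09, 9.14 and 9.18 log2 CPM in MA12 rats 21, 31, 4N and 7N. It was 9.57, 9.81, 9.58 and 9.84 log2 CPM in the MA24 rats and 9.67, 9.22, 9.49 and 9.73 log2 CPM in the non-addicted rats. The highest MA12 rat was below the lowest rat of each other group, by a small margin to non-addicted rat 11. The group means were 9.03 ± 0.21 in MA12, 9.70 ± 0.14 in MA24 and 9.53 ± 0.23 log2 CPM in the non-addicted rats (SD, n = 4 each). Counts were high, from 10106 to 13022 in MA12 libraries and up to 18168 in MA24.

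*Dbp* rose 1.58-fold in MA24 vs. MA12 (log2FC 0.66, SE 0.11, edgeR adjusted p = 0.00558). Its log2FC in non-addicted vs. MA12 was 0.49 (SE 0.13, edgeR adjusted p = 0.112), which did not pass the test although the groups did not overlap. DESeq2 gave this comparison an adjusted p of 0.0107, with a log2FC of 0.50 that is under the FC threshold. Between non-addicted and MA24 rats the log2FC was -0.17 (SE 0.11, edgeR adjusted p = 0.430). The rise in MA24 vs. MA12 fell under the FC threshold without MA12 rat 21 (log2FC 0.58, edgeR adjusted p = 0.0151) and among the rats whose numbers end in N (0.56, edgeR adjusted p = 0.0192). With the N of the rat numbers as a term in the fit it was 0.54 (edgeR adjusted p = 0.0522). For non-addicted vs. MA12 the rats whose numbers do not end in N gave 0.63 (edgeR adjusted p = 0.0308), past both thresholds.

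*Tef*, which encodes another activator of D-box elements, had the order of *Dbp* with a smaller step. It was at 9.07, 9.29, 9.38 and 9.26 log2 CPM in the MA12 rats and at 9.51, 9.48, 9.54 and 9.57 log2 CPM in the MA24 rats. In the non-addicted rats it was at 9.43, 9.38, 9.42 and 9.52 log2 CPM. The MA24 rats all lay above the MA12 rats, and the lowest non-addicted rat lay at the level of the highest MA12 rat. The log2FC in MA24 vs. MA12 was 0.27 (SE 0.10) and did not pass the test in edgeR (adjusted p = 0.0999). DESeq2 gave it an adjusted p of 0.028, at a size under the FC threshold. In non-addicted vs. MA12 it was 0.18 (SE 0.10, edgeR adjusted p = 0.489), and -0.09 (SE 0.06, edgeR adjusted p = 0.511) in non-addicted vs. MA24 without the variance filter.

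*Nfil3*, which encodes the repressor of D-box elements, had the largest SE of the members, and 167 to 331 counts a library. Its level was 3.52, 3.23, 3.25 and 3.80 log2 CPM in the MA12 rats and 3.56, 3.97, 3.53 and 3.22 log2 CPM in the MA24 rats. In the non-addicted rats it was 3.48, 4.04, 3.32 and 3.14 log2 CPM. The 3 groups covered nearly the same range. The log2FC was 0.13 (SE 0.18, edgeR adjusted p = 0.697) in MA24 vs. MA12, 0.06 (SE 0.19, edgeR adjusted p = 0.937) in non-addicted vs. MA12 and -0.07 (SE 0.20, edgeR adjusted p = 0.877) in non-addicted vs. MA24. The sign of each of these turned when single rats were left out.

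Counted over the set, 7 of the 8 genes passed the filters in MA24 vs. MA12, and 2 were called, *Arntl* lower and *Dbp* higher. Of the 10754 genes tested in that comparison, 264 (2.45%) were called, 185 lower (1.72%) and 79 higher (0.735%). Between MA12 and MA24, *Arntl* and *Clock* were lower without overlap (8.32% of all genes tested) and *Dbp* and *Tef* higher without overlap (7.17%), 15.5% of genes in all. In non-addicted vs. MA12, 7 members were tested and *Arntl* was called, against 27 of 10758 genes (0.251%). *Arntl* was lower there without overlap (3.6% of all genes) and *Dbp* and *Nr1d2* higher (3.5%), 7.09% of genes in all. In non-addicted vs. MA24, 5 members were tested and 0 were called by edgeR or by DESeq2, against 49 of 10744 genes (0.456%). There, *Nr1d2* had an unadjusted edgeR p of 0.0287, and the other 4 members tested had an unadjusted p above 0.05, against 17.5% of all genes tested with an unadjusted p under 0.05. No member separated these groups, against 5.09% of all genes higher and 4.89% lower without overlap, 9.98% in all. The median log2FC over all genes was -0.0158, -0.0124 and 0.00309 in the 3 comparisons.

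**Figure D2:**
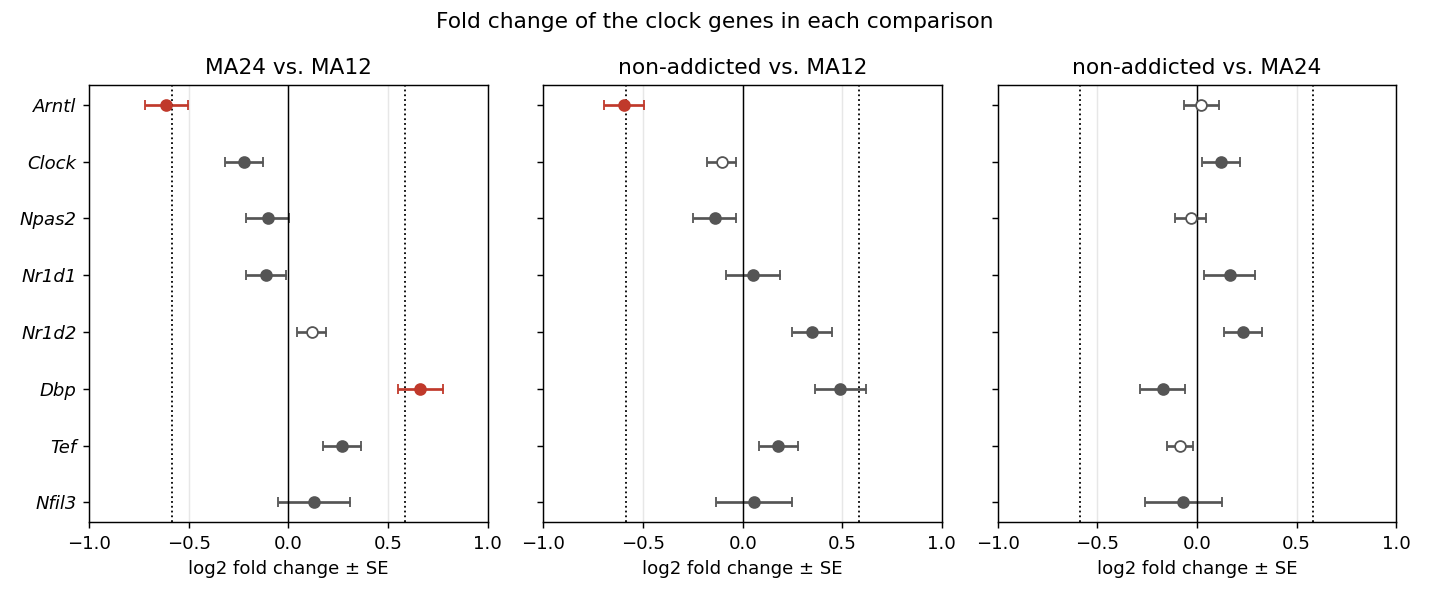
Log2 fold change with its SE (horizontal axis) of the 8 clock genes in the 3 comparisons, with the FC threshold of 1.5 as dotted lines. Red points passed both thresholds, grey points did not, and open points are genes that the variance filter removed, taken from the fit without it; no gene is red in non-addicted vs. MA24.

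The spread between rats of a group differed among the members. The pooled SD within groups was 0.0872 log2 CPM for *Tef*, 0.0899 for *Clock*, 0.102 for *Nr1d2*, 0.12 for *Arntl* and 0.132 for *Npas2*. These lie below the median of 0.156 log2 CPM over 10765 genes with a mean count of at least 50. *Dbp* (0.196), *Nr1d1* (0.212) and *Nfil3* (0.325) varied more than the median gene.

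Non-addicted rat 11 lay at the end of its group's range in several members, though no value passed Dixon's outlier test at the 95% level (24 groups of 4 rats). It had the lowest *Dbp*, *Tef*, *Nr1d1*, *Nr1d2* and *Npas2* of its group and the highest *Nfil3*, while its *Arntl* and *Clock* lay inside the range of the group. Of the clock repressors, it had the highest *Per1*, *Per2* and *Cry1* and the lowest *Ciart* and *Bhlhe40* of its group. Its *Per3* and *Cry2* lay inside the range. The same library held 181 counts of *Avp*, the gene of the hypothalamic peptide vasopressin, against at most 17 in the other 11. Without this rat the log2FC of *Dbp* in non-addicted vs. MA12 was 0.59 (edgeR adjusted p = 0.0645) and that of *Nr1d1* was 0.19 (edgeR adjusted p = 0.579). That of *Arntl* was -0.59 (edgeR adjusted p = 0.0434), still past both thresholds.

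Ratios between members within a library do not depend on how libraries are scaled, and are given as a description on the log2 scale with 0.5 added to each count. The ratio of *Arntl* to *Clock* was -0.64, -0.73, -0.38 and -0.38 in the MA12 rats. It was -0.75, -0.96, -1.02 and -0.95 in the MA24 rats and -0.9995, -0.97, -1.07 and -1.04 in the non-addicted rats. All MA12 rats lay above all others, with MA24 rat 9N close to the lowest MA12 rat. This ratio restates the *Arntl* levels in part and was not tested. The ratio of *Npas2* to *Clock* overlapped in all groups, with medians of 0.73, 0.79 and 0.63 in MA12, MA24 and non-addicted rats.

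The ratio of the repressor *Nr1d1* to its target *Arntl* was 0.84, 1.27, 1.13 and 0.83 in the MA12 rats. It was 1.31, 1.44, 1.55 and 1.78 in the MA24 rats, all above MA12, and 1.76, 1.85 and 1.77 in non-addicted rats 9, 12 and 13. Rat 11 was the exception, inside the MA12 range. The ratio of *Dbp* to *Tef* was -0.34, -0.21, -0.25 and -0.08 in the MA12 rats and 0.06, 0.33, 0.04 and 0.27 in the MA24 rats, without overlap. In the non-addicted rats it was 0.23, -0.16, 0.07 and 0.20, which overlaps MA12 through rat 11. The ratio of the D-box activator *Dbp* to the repressor *Nfil3* ran from 5.22 to 5.90 in MA12, from 5.84 to 6.63 in MA24 and from 5.19 to 6.60 in the non-addicted rats. These ranges overlap, as did those of *Nr1d1* to *Nr1d2*, whose medians were -0.0026, -0.20 and -0.29. The ratios of *Nr1d1* to *Arntl* and of *Dbp* to *Tef* restate the levels of *Arntl* and *Dbp* in part and were not tested.

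**Figure D3:**
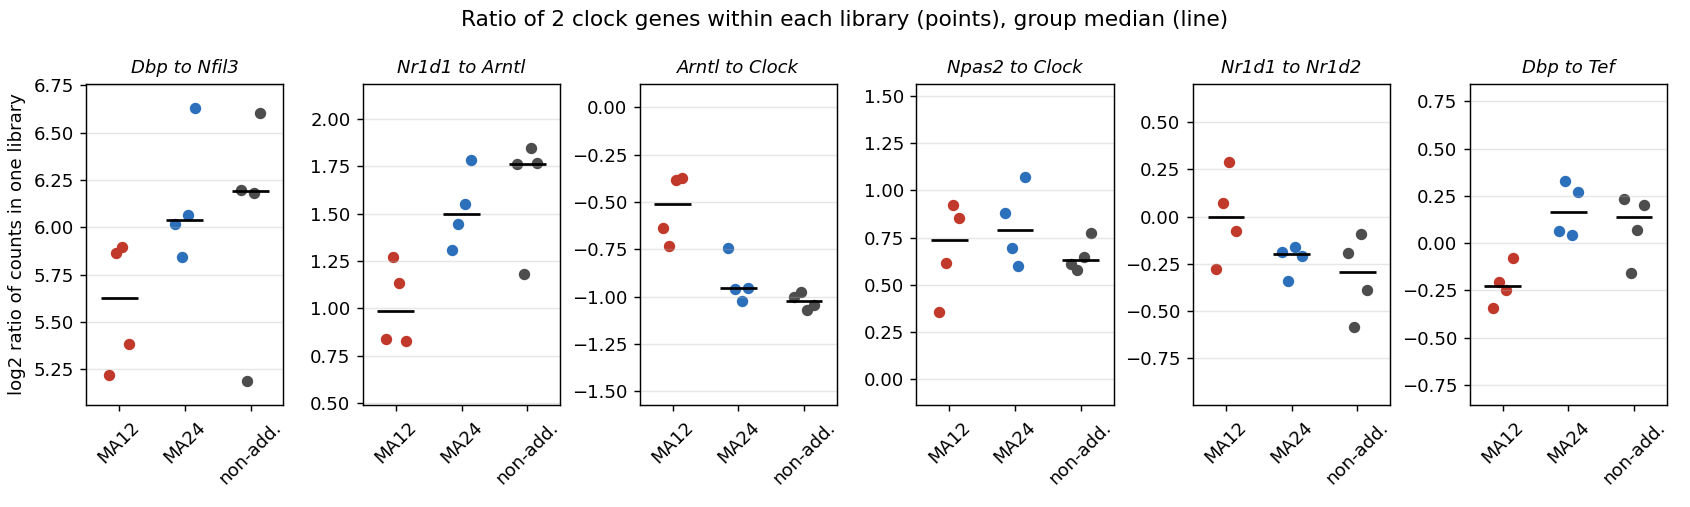
Log2 ratio of the counts of 2 clock genes within each library (vertical axis, the same span in every panel) for the 12 rats, with the group median as a line. *Arntl* to *Clock* is higher in all MA12 rats than in the others, and *Dbp* to *Tef* and *Nr1d1* to *Arntl* separate MA12 from MA24. These ratios restate the levels of *Arntl* and *Dbp* in part and were not tested.

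The other genes of the clock were taken from lists by role, and the groups were read in the same fits. Of the repressors (the period and cryptochrome genes, *Ciart*, *Bhlhe40* and *Bhlhe41*), 7 were tested in MA24 vs. MA12, with a median log2FC of 0.49. Of the 7, 2 were called higher, against 0.735% of all genes tested. These were *Ciart*, a repressor of the BMAL1 pair (log2FC 0.98, edgeR adjusted p = 0.00558), and *Per2* (log2FC 0.96, edgeR adjusted p = 0.0141). *Per3* rose there too, at a size under the FC threshold (log2FC 0.50, edgeR adjusted p = 0.0147). In non-addicted vs. MA12, 3 of 6 were called higher, against 0.102% of all genes tested. They were *Per2* (log2FC 1.04, edgeR adjusted p = 0.0128), *Ciart* (0.997, edgeR adjusted p = 0.0283) and *Per3* (0.64, edgeR adjusted p = 0.0225). The median of the 6 was 0.58. Without the variance filter 0 of the other clock genes were called there, and 2 with no filter at all. In non-addicted vs. MA24, 0 of 6 were called, with a median of 0.11.

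Partners and modifiers of the clock proteins had 1 of 8 tested genes called in MA24 vs. MA12, where 1.72% of all genes were called lower. This was *Gsk3b*, a kinase that phosphorylates clock proteins, which fell (log2FC -0.63, edgeR adjusted p = 0.0236). Its call was lost without MA24 rat 14N, without MA24 rat 16N and among the rats whose numbers end in N. Its level was 5.75, 4.74, 5.56 and 5.27 log2 CPM in MA24 rats 9N, 14N, 15N and 16N. The median of that list was -0.27, and 0 of 9 genes were called in each of the other comparisons. *Rorb*, the relative of *Rora* in the table, had log2FC of -0.34, -0.29 and 0.06 in the 3 comparisons and was not called. Of the clock-controlled outputs, such as *Wee1*, *Nampt* and *Usp2*, 0 of 9 were called in each comparison, with medians of -0.16, -0.04 and 0.12. With the N of the rat numbers as a term in the fit, 0 of the other clock genes were called in MA24 vs. MA12.

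The genes whose pattern over the 12 rats was most like that of *Arntl* and *Dbp* were found by the root mean square difference of centred log2 CPM. For *Arntl*, whose own root mean square was 0.301, they were *Pdyn*, the prodynorphin gene (0.143), *Wbscr17* (0.16), *Neto2* (0.162), *Usp45* (0.165) and *Rasgrp1* (0.169). Of these, *Usp45* was called lower in MA24 vs. MA12 (log2FC -0.73, edgeR adjusted p = 0.0128) and *Pdyn* in non-addicted vs. MA12 (log2FC -0.65, edgeR adjusted p = 0.0281). In MA24 vs. MA12, *Pdyn* (-0.57), *Wbscr17* (-0.40), *Neto2* (-0.46) and *Rasgrp1* (-0.50) were also lower, at sizes under the FC threshold. Their edgeR adjusted p was at most 0.0422. For *Dbp*, whose own root mean square was 0.329, they were *Prrt4* (0.138), *Cbr3* (0.141), *Camkv* (0.151), *Lin7b* (0.156) and *Gfra4* (0.156). *Prrt4* (log2FC 0.61, edgeR adjusted p = 0.0144) and *Cbr3* (0.70, edgeR adjusted p = 0.0104) were called higher in MA24 vs. MA12. *Camkv* (0.44, edgeR adjusted p = 0.0195) and *Lin7b* (0.55, edgeR adjusted p = 0.0127) rose there under the FC threshold. *Gfra4* (0.54, edgeR adjusted p = 0.0684) passed neither threshold. All of these genes were picked for likeness over the same 12 rats, so their differences between groups follow in part from that choice. None of the 10 genes is in the clock lists used here.

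The calls for *Arntl* and *Dbp* were recomputed under other settings. In MA24 vs. MA12 the log2FC of *Arntl* ran from -0.71 to -0.56 over 15 alternatives and that of *Dbp* from 0.54 to 0.72. For non-addicted vs. MA12 they ran from -0.66 to -0.48 for *Arntl* and from 0.40 to 0.63 for *Dbp*. Neither gene changed direction in these comparisons.

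**Figure D4:**
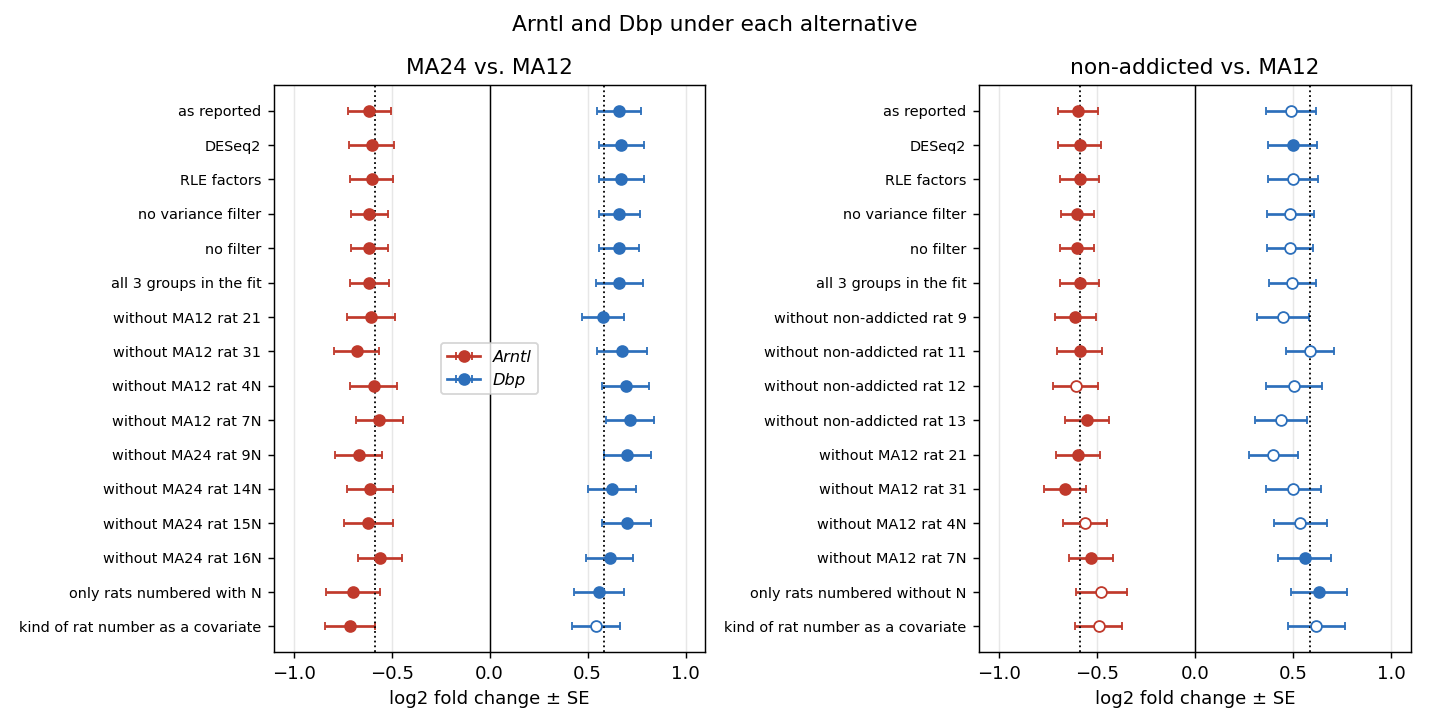
Log2 fold change with its SE (horizontal axis) of *Arntl* and *Dbp* as reported and under each alternative, for MA24 vs. MA12 and non-addicted vs. MA12. Filled points have an adjusted p below 0.05 and dotted lines mark the FC threshold of 1.5, near which most of the *Arntl* points lie; no point crosses 0.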

How the data were processed

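Poly-A RNA of whole striatum was sequenced from 12 rats (TruSeq v2 kit). Per the labels and the study's methods, the authors used Cutadapt 1.18 for trimming and STAR 2.7.0e for alignment to rn6, and deposited raw counts per gene from featureCounts. The submitters' processing notes also name HTSeq 0.12.4. The annotation and the handling of strands and of reads with several positions are not given in the sources used here.

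The deposited counts were fitted in R 4.3.3 by edgeR 4.0.16, 1 pair of groups at a time. Each fit was preceded by filters. A gene needed a mean above 4 counts in the 8 libraries, and of those left, the least variable 15% (log2 CPM) were dropped. Libraries were scaled by TMM, tested with glmQLFit and glmQLFTest, and p-values adjusted over all genes tested (Benjamini-Hochberg). Called genes have an adjusted p under 0.05 and change by 1.5-fold or more. For a member dropped for low variance, values come from a fit that keeps such genes. Levels (log2 CPM, prior count 2) were computed over the 12 libraries. The fit was also run on counts simulated from its own model, which checks the code and not the calls in these rats. Total counts of 17908962 to 23850284 per rat gave 167 to 331 counts for *Nfil3*. The rats are separate animals.

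Groups and rat numbers come from the labels. The members and gene lists were chosen with earlier results of these data known. The text names all members, other clock genes called in any comparison, and the 5 genes nearest in pattern to *Arntl* and to *Dbp* among genes with a mean count of at least 50. *Rorb*, *Thra* and *Avp*, and the *Rgs5*, *Prkcd*, *Cldn5*, *Foxj1*, *Trh* and *Hcrt* markers, were added after their values were seen. So were the repressors *Per1*, *Cry1*, *Cry2* and *Bhlhe40*. Alternatives were DESeq2 1.42.0, RLE factors, removal of 1 or both filters, a joint fit of the 3 groups, omission of single rats, rats with or without N alone, and N as a covariate.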

Additional observations from a re-analysis of the deposited data

How the results depend on the processing

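Of the alternative values for the log2FC of single members, 263 kept their direction and their call or lack of one, which takes both thresholds, 11 lost the call, 1 gained it and 8 turned sign. Some of the 263 crossed 1 threshold alone. DESeq2 gave an adjusted p below 0.05 to *Tef* (0.028) in MA24 vs. MA12 and to *Nr1d2* (0.0243) and *Dbp* (0.0107) in non-addicted vs. MA12. In the last comparison *Dbp* had 0.0467 without MA12 rat 7N, and a log2FC past the FC threshold without non-addicted rat 11 (0.588) and with N as a covariate (0.62). The 11 were *Arntl* and *Dbp* values, of which 6 stayed at an adjusted p below 0.05 but fell under an FC of 1.5. The number of members called in MA24 vs. MA12 (2) ranged from 1 to 2 with rats left out. It was 1 with only the rats numbered with N and 1 with the N of the numbers as a covariate. In non-addicted vs. MA12 it (1) ranged from 0 to 1 with rats left out and was 0 with the covariate. With only the rats numbered without N it stayed at 1, with *Dbp* called in place of *Arntl*.

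Of the other clock genes, 3 were called in MA24 vs. MA12, 2 to 4 with rats left out and 0 with the covariate. For non-addicted vs. MA12, 3 were called, 0 without the variance filter, 2 with no filter, 1 to 5 with rats left out and 1 with the covariate. In non-addicted vs. MA24, 0 were called, and 0 to 2 with rats left out, the 2 without non-addicted rat 13. The signs that turned belonged to members that were not called. The log2FC of *Npas2* in non-addicted vs. MA12 was 0.018 with the covariate. With rats left out, *Nr1d1* in non-addicted vs. MA12 ran from -0.030 to 0.19. *Nfil3* ran from -0.024 to 0.26 in MA24 vs. MA12, from -0.15 to 0.21 in non-addicted vs. MA12 and from -0.28 to 0.079 in non-addicted vs. MA24. The cause of these changes was not tested. Levels moved by less than 1 SD with another prior count or without TMM factors. No paired analysis was possible because the groups share no rat numbers. *Nfil3* had 167 to 331 counts a library and a pooled SD within groups of 0.325 log2 CPM, and the part of counting error in that spread was not tested.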
